A study of Rattus norvegicus with 12 samples.

Results

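The genes described here are 30 members of mitochondrial fatty acid oxidation and of the set of genes controlled by the nuclear receptor PPAR-alpha. They were chosen by gene name among the probes of a rat expression array. A total of 39 of its 41012 probes measured them, and each of the 30 had at least 1 probe. Left ventricle and whole blood were sampled from male Sprague-Dawley (CD) rats of 290 to 320 g. The rats received amiodarone, an antiarrhythmic drug, by mouth at 300 mg/kg per day for 10 days, or the 1% methylcellulose vehicle alone. Each of the 4 groups (vehicle heart, amiodarone heart, vehicle blood, amiodarone blood) had 3 pools with 1 array each. The protocol gives an age of 10 weeks at the start and the sample labels give 11 weeks. The labels do not say how many rats made up a pool or which, so p-values measure only the spread between pools.

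PPAR-alpha is a ligand-activated transcription factor that binds fatty acids and their derivatives, pairs with the retinoid X receptor and raises the transcription of genes for fatty acid uptake and burning. The heart obtains most of its energy from fatty acids: these are taken up from blood, activated to acyl-CoA, carried into mitochondria as carnitine esters and shortened there by beta-oxidation. When fatty acids are plentiful, pyruvate dehydrogenase kinases restrain glucose oxidation and acyl-CoA thioesterases release acyl groups from CoA.

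Levels are given as log2 of an array's processed signal minus the log2 of that array's 75th percentile, so 0 stands for a spot at the 75th percentile. They compare arrays within a probe, not probes with each other. Vehicle pools 1, 2 and 3 come before amiodarone pools 1, 2 and 3, and a difference is amiodarone minus vehicle with its standard error (SE). A gene counted as changed when limma's moderated test gave a p below 0.05 after Benjamini-Hochberg adjustment across every feature tested in that tissue.

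On heart arrays, 21233 to 25032 of 43379 spots were well above background. Blood arrays had 14459 to 15548 in the vehicle group and 20625 to 21245 in the amiodarone group, and the log2 of the 75th percentile was 1.6 higher in the amiodarone blood group, against -0.13 in heart. Cardiomyocyte markers were above background on every heart array in 12 of 12 cases and 0 passed the test, and their summed share of signal ran from 4.11 to 4.71% in vehicle and from 3.82 to 4.0% in amiodarone hearts. Among other cell types in the heart, 4 of 9 measured macrophage markers were higher, with a share of 0.016 to 0.027% against 0.029 to 0.037%. Fibroblast markers were lower in 5 of 7 cases and red cell markers in 5 of 9. Neutrophil markers were higher in 2 of 2 cases, S100a8 (2.12) and S100a9 (1.88), and of 4 platelet markers 2 were higher (Gp1bb 0.88, Pf4 0.57) and Treml1 was lower (-1.16), with a platelet share of 0.005% in vehicle and 0.006 to 0.008% in amiodarone hearts. For adipocytes, which share many of the genes described here, 3 of 9 markers were above background on enough heart arrays to be tested and 0 were called, with a share of 0.008 to 0.011% against 0.012 to 0.019%. The part of these marker shifts in the results was not tested. In bulk RNA, fewer cells of a type and less RNA per cell cannot be told apart.

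In the left ventricle, 6 of the 30 genes were higher after amiodarone and 1 was lower, while 23 did not pass. The higher genes were Acot1, Pdk4, Decr1, Ech1, Cd36 and Slc27a1, and the lower gene was Plin5. Of all 17677 features tested in heart, 8.41% passed the same threshold, 4.25% higher and 4.16% lower. The difference was positive in 25 of 30 genes (83.3%), against 52.1% of all features, and its median was 0.39 against 0.02. Amiodarone arrays all lay above vehicle arrays in 16 of 30 genes (18.8% of all features), and all lay below in 1 (13.7%). The heart arrays came from 2 array sets, the first with pools 1 and 2 of both groups and the second with pool 3 of both. With each array scaled to its median the calls split into 7 higher and 0 lower, and with no scaling into 4 higher and 0 lower.

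**Figure D1:**
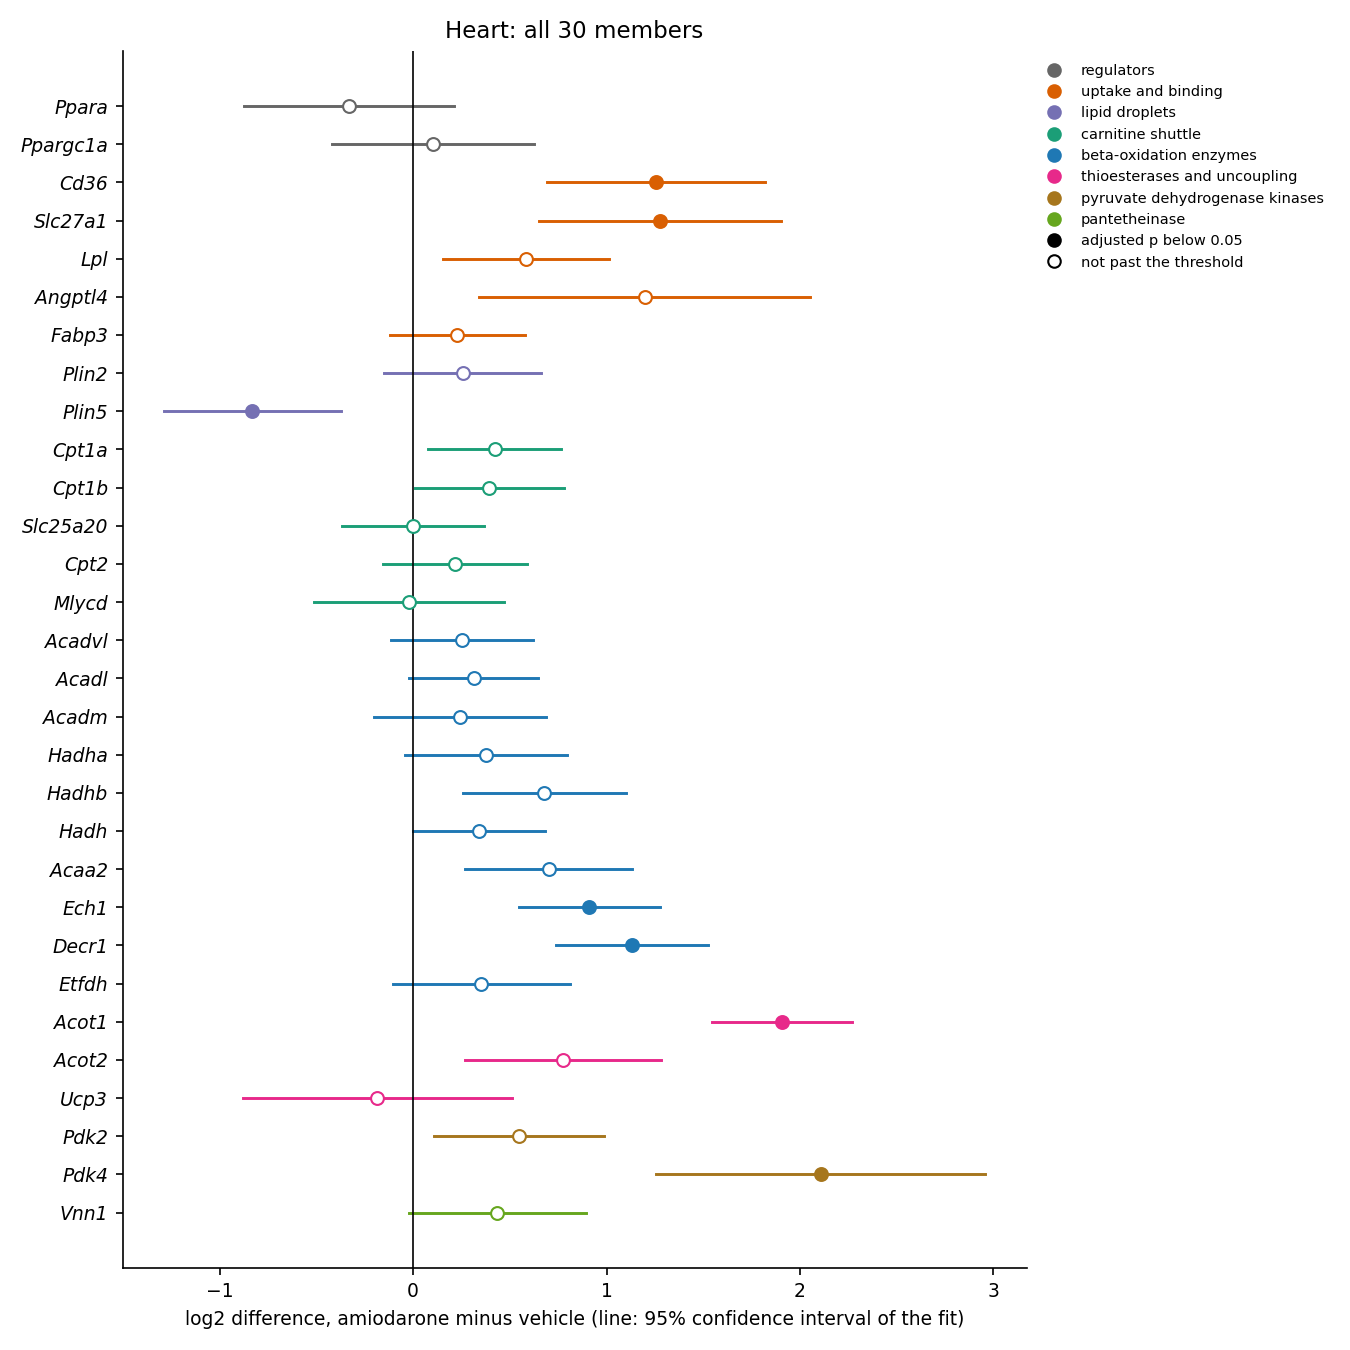
Difference in the left ventricle (amiodarone minus vehicle, log2) for each of the 30 genes, ordered by role, with its 95% confidence interval from the limma fit. Filled points passed the adjusted p threshold: 6 genes lie to the right of 0 and Plin5 alone to the left.

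Neither regulator passed the test. Ppara, the receptor itself, stood at -0.40, -0.41 and -0.01 in vehicle hearts and at -0.83, -0.13 and -0.86 in amiodarone hearts (difference -0.33, SE 0.23, adjusted p = 0.419). Ppargc1a, a coactivator of PPAR-alpha and of mitochondrial biogenesis, stood at -0.44, 0.10 and -0.47 and at 0.05, -0.53 and -0.03 (difference 0.10, SE 0.22, adjusted p = 0.812). For each gene the groups overlapped. The Ppara difference was -0.08 within the first array set and -0.84 within the second.

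All 5 genes of fatty acid uptake and binding had positive differences in heart, with a median of 1.20, and 2 passed the test. Cd36, the fatty acid translocase of the plasma membrane, stood at 3.62, 3.71 and 3.63 in vehicle hearts and at 5.39, 4.93 and 4.41 in amiodarone hearts. The 3 vehicle pools were close together, and the amiodarone pools lay above them without overlap, spread over a wider range. The difference was 1.26 (SE 0.24, 95% interval 0.69 to 1.82), or 2.39-fold, with an adjusted p of 0.0226. It was 1.5 within the first array set and 0.77 within the second. The call was lost without amiodarone pool 2 or without vehicle pool 1, 2 or 3, with adjusted p from 0.0763 to 0.0911. Adjusted p was 0.0519 with the replicate number as a block.

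Slc27a1 (FATP1), a fatty acid transport protein with acyl-CoA synthetase activity, stood at 3.54, 3.00 and 3.59 in vehicle and at 4.15, 4.75 and 5.06 in amiodarone hearts. Every amiodarone pool was above every vehicle pool. The difference was 1.28 (SE 0.27, adjusted p = 0.0311), or 2.42-fold, and a second Slc27a1 probe gave 1.27 (adjusted p = 0.0759). Of the 6 fits that left out 1 pool, only that without amiodarone pool 1 kept the call; without amiodarone pool 2 or 3, or vehicle pool 1, 2 or 3, adjusted p was 0.0679 to 0.106.

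The secreted side of fatty acid supply showed positive differences that did not pass. Lpl, the lipase that frees fatty acids from circulating triglyceride, stood at 4.59, 4.47 and 4.38 and at 5.38, 5.05 and 4.76 (difference 0.58, SE 0.18, adjusted p = 0.102). Angptl4, a secreted inhibitor of that lipase, stood at -2.03, -2.66 and -2.88 and at -1.97, -1.42 and -0.59 (difference 1.20, SE 0.37, adjusted p = 0.0941). In both genes the groups did not overlap, although for Angptl4 vehicle pool 1 and amiodarone pool 1 were nearly level, and the difference was 0.65 within the first array set and 2.29 within the second. Fabp3, the heart's cytosolic fatty acid binding protein, stood at 8.27, 7.97 and 7.93 and at 8.28, 8.37 and 8.20, a difference of 0.23 (SE 0.15, adjusted p = 0.385). Of its amiodarone pools, pool 3 lay below vehicle pool 1.

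The lipid droplet coat proteins had differences of opposite sign. Plin5, the perilipin of oxidative tissues that tethers droplets to mitochondria, stood at 2.20, 1.83 and 2.15 in vehicle and at 1.01, 1.1 and 1.58 in amiodarone hearts. All amiodarone pools were below all vehicle pools. It fell by 0.83 on the log2 scale (SE 0.20, 1.78-fold lower, adjusted p = 0.0445). This was the weakest of the heart calls: it was kept without amiodarone pool 3 and lost without each of the other 5 pools (adjusted p 0.0788 to 0.157), and it was lost with array median scaling (adjusted p = 0.0643), with no scaling (adjusted p = 0.124) and with the replicate number as a block (adjusted p = 0.0754). Plin2, the perilipin that accumulates with stored lipid in most cells, stood at 3.47, 3.69 and 3.59 and at 4.14, 3.60 and 3.77. Amiodarone pool 1 was the highest, and the others lay among or just above the vehicle pools (difference 0.26, SE 0.17, adjusted p = 0.406).

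None of the 5 carnitine shuttle genes passed the test in heart, and their median difference was 0.22. Cpt1a and Cpt1b are the liver-type and muscle-type forms of carnitine palmitoyltransferase 1, the step that commits fatty acids to mitochondria. Cpt1a stood at 0.91, 1.13 and 0.76 in vehicle and at 1.30, 1.42 and 1.35 in amiodarone hearts (difference 0.42, SE 0.15, adjusted p = 0.129), without overlap. A second Cpt1a probe, whose position is given on the opposite strand, differed by 0.55. Cpt1b stood at 8.01, 7.75 and 7.64 and at 7.99, 8.36 and 8.22 (difference 0.39, SE 0.17, adjusted p = 0.192), with overlap at pool 1. The other 3 genes of the shuttle overlapped between groups. Slc25a20, the carnitine-acylcarnitine carrier of the inner membrane, differed by -0.00 (SE 0.16, adjusted p = 0.998). For Cpt2, which returns the acyl group to CoA inside the mitochondrion, the difference was 0.22 (SE 0.16, adjusted p = 0.448). For Mlycd, the decarboxylase that removes the CPT1 inhibitor malonyl-CoA, it was -0.02 (SE 0.21, adjusted p = 0.961).

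Among the 10 beta-oxidation enzymes, 2 were higher in amiodarone hearts, and the sign was positive in 10 of 10 with a median of 0.36. Both changed genes are auxiliary enzymes, needed for unsaturated fatty acids whose double bonds the main spiral cannot handle. Decr1, the mitochondrial 2,4-dienoyl-CoA reductase, stood at 6.48, 6.02 and 6.47 in vehicle and at 7.55, 7.40 and 7.42 in amiodarone hearts. Ech1, a dienoyl-CoA isomerase, stood at 7.37, 7.07 and 7.11 and at 8.0, 7.99 and 8.28. For each gene the amiodarone pools were closely grouped and above every vehicle pool.

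The Decr1 difference was 1.13 (SE 0.17, adjusted p = 0.00914), or 2.19-fold. It was 1.23 within the first array set and 0.95 within the second, and the call held in 6 of 6 fits that left out 1 pool. The Ech1 difference was 0.91 (SE 0.16, adjusted p = 0.0149), or 1.88-fold, with 0.78 and 1.18 within the sets. Its call was lost without vehicle pool 2 (adjusted p = 0.0668) or vehicle pool 3 (adjusted p = 0.0734), and with the replicate number as a block (adjusted p = 0.0559). With no scaling between arrays neither call held, at adjusted p of 0.0962 for Decr1 and 0.307 for Ech1.

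The enzymes of the main spiral had smaller differences, none of them past the threshold. Acadm, the medium-chain acyl-CoA dehydrogenase, stood at 7.13, 7.14 and 7.21 in vehicle and at 7.77, 7.10 and 7.32 in amiodarone hearts (difference 0.24, SE 0.19, adjusted p = 0.477). Hadha, the alpha subunit of the trifunctional protein, stood at 7.28, 7.06 and 7.17 and at 7.22, 7.62 and 7.79 (difference 0.38, SE 0.18, adjusted p = 0.244). In both genes 1 amiodarone pool lay at the vehicle level. Of 3 Hadha probes, the other two gave 0.30 and 0.03.

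The thiolase steps came nearest to the threshold. Acaa2, the 3-ketoacyl-CoA thiolase of the mitochondrial matrix, differed by 0.70 (SE 0.19, adjusted p = 0.0621), with 0.64 from a second probe. Hadhb, the beta subunit of the trifunctional protein, which carries its thiolase, differed by 0.68 (SE 0.18, adjusted p = 0.0635). Both had amiodarone pools above all vehicle pools. So did Hadh, the 3-hydroxyacyl-CoA dehydrogenase for shorter chains (0.34, adjusted p = 0.200), Acadl, the long-chain acyl-CoA dehydrogenase (0.31, adjusted p = 0.229), and Acadvl, the very-long-chain one (0.25, adjusted p = 0.363), although a second Acadvl probe gave -0.07. Etfdh, which passes the electrons of the dehydrogenases to ubiquinone, differed by 0.35 (adjusted p = 0.308), with overlap.

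The smallest adjusted p of the 30 genes in heart was that of Acot1, an acyl-CoA thioesterase of the cytosol. Acot1 stood at -1.28, -0.97 and -1.22 in vehicle and at 0.77, 0.58 and 0.90 in amiodarone hearts. The groups were far apart and narrow, and the probe was well above background on all 6 heart arrays. The difference was 1.91 (SE 0.16, 95% interval 1.55 to 2.27, adjusted p = 0.000922), or 3.76-fold, with 1.8 and 2.13 within the array sets. Acot1 kept its call without any 1 of the 6 pools. With normexp background correction its difference was 1.21, and in a fit over all 12 arrays, where its blood values lay at background, adjusted p was 0.176.

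Acot2, the mitochondrial thioesterase encoded beside it on rat chromosome 6, stood lower in vehicle than in amiodarone pools without overlap, with a difference of 0.77 (SE 0.22, adjusted p = 0.0747). In build rn4 the Acot1 probe lies at chr6:108049691-108049750 and the Acot2 probe at chr6:108024282-108024341, both on the plus strand. The thioesterases are close paralogs, but these probes are not: the best local alignment between both probes of 60 bases covered 9 bases, 8 of them identical. Ucp3, the uncoupling protein of muscle mitochondria, stood at 0.02, -0.40 and -0.99 in vehicle and at -0.82, -0.93 and -0.18 in amiodarone hearts. Its groups overlapped widely (difference -0.18, SE 0.30, adjusted p = 0.738), and the sign differed between the array sets, with -0.68 and 0.80.

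Of the pyruvate dehydrogenase kinases, which switch glucose oxidation off, Pdk4 was higher in amiodarone hearts. It stood at -1.90, -2.68 and -2.34 in vehicle and at -1.02, 0.19 and 0.24 in amiodarone hearts. No pools overlapped, and amiodarone pool 1 lay nearer to the vehicle pools than the others. The difference was 2.11 (SE 0.36, 95% interval 1.26 to 2.96, adjusted p = 0.0155), or 4.31-fold, with 1.87 and 2.58 within the array sets, the largest of the 30 in heart in this fit. Without amiodarone pool 2, vehicle pool 2 or vehicle pool 3, adjusted p was 0.0556, 0.0706 and 0.0622. With the replicate number as a block it was 0.0593, and with normexp correction the difference was 1.06, below that of Acot1. Pdk2, the kinase expressed in most tissues, differed by 0.55 (SE 0.19, adjusted p = 0.123), without overlap. Vnn1, a pantetheinase and known PPAR-alpha target, stood at 2.45, 2.89 and 2.61 and at 3.42, 2.98 and 2.86 (difference 0.44, SE 0.20, adjusted p = 0.220), with overlap at amiodarone pool 3.

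The Cd36 and Pdk4 probes are shown because the first moved in opposite directions in the tissues and the second had the largest heart difference in this fit. In the positions deposited for rn4 both cover more of the genome than their 60 bases, so each crosses at least 1 intron and reads spliced RNA. Cd36 lies at chr4:13518295-13519542, plus strand, a span of 1248 bases, and Pdk4 at chr4:30239150-30241038, minus strand, a span of 1889 bases. Both sequences are as given in the deposited scanner files.
Cd36 probe: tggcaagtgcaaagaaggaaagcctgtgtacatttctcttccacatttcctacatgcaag
Pdk4 probe: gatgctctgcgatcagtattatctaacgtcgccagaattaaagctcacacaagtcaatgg

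**Figure D2:**
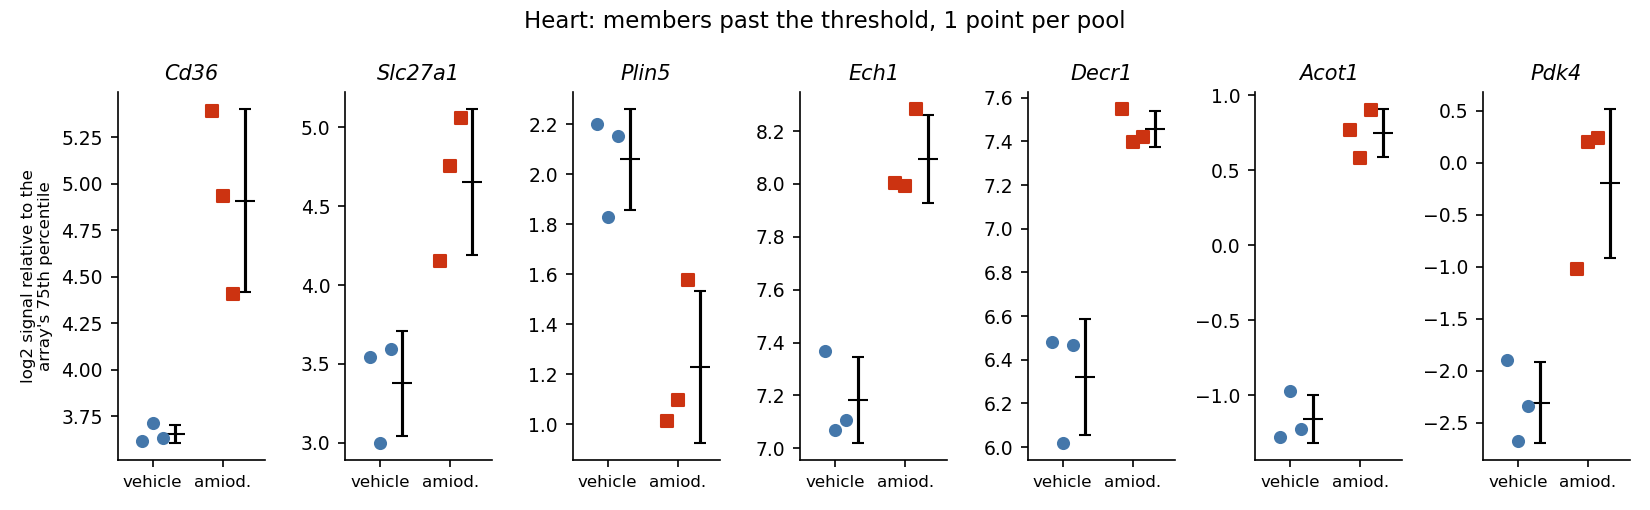
Log2 level relative to the 75th percentile of the array in each heart pool for the 7 genes that passed the test, 1 panel per gene with its own y axis; points are pools and bars the mean and SD (n = 3). In 7 of 7 panels the groups do not overlap, and Plin5 is the gene with lower amiodarone pools.

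The wider pathway was read from 86 further genes of lipid transport, storage and oxidation, of which 83 were on the array and 73 could be tested in heart. Of these, 10 were higher, 3 were lower and 49 of 73 had a positive difference, with a median of 0.26, beside 4.25% higher, 4.16% lower, 52.1% positive and a median of 0.02 over all heart features. Txnip, a glucose-responsive inhibitor of thioredoxin and glucose uptake, was 1.95 higher (SE 0.16, adjusted p = 0.000903). Gpihbp1, which anchors lipoprotein lipase on capillary endothelium, was 1.71 higher (SE 0.19, adjusted p = 0.00272). Of 6 endothelial markers 0 passed the test in heart, and the part of endothelial cells in the Gpihbp1 difference was not tested. Dgat2, an enzyme of the last step of triglyceride synthesis, was 1.48 higher (SE 0.15, adjusted p = 0.00217). Ehhadh, the bifunctional enzyme of peroxisomal beta-oxidation, was 1.17 higher (SE 0.18, adjusted p = 0.0111), and its call was lost with normexp correction (0.46, adjusted p = 0.0610) and with no scaling (1.04, adjusted p = 0.0755). With no scaling the wider genes split into 4 higher and 2 lower.

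PPAR-alpha and its partner bind a direct repeat of AGGTCA with a spacing of 1 base. Promoters of RefSeq (build GRCr8), 250 bases before to 50 after each gene's start, were at hand for 23 of the 30 genes, and this element (AGGTCA, any base N, AGGTCA) was searched on both strands with up to 2 mismatches at its fixed letters. It was found in 3 of 23 (13%), Acadvl, Slc25a20 and Ucp3, and in 1263 of all 33469 promoters (3.77%). A match is a description of the letters only. None of the 5 genes changed in heart that had a promoter here (Acot1, Cd36, Pdk4, Plin5, Slc27a1) held it in this window, and none of the 3 genes with a match passed the test in heart. The match in Acadvl begins at position -17 from the start with 1 mismatch, that in Ucp3 at -57 with 2 and that in Slc25a20 at 15 with 2. They are shown in full, in the gene's direction, with the match in capitals.
Acadvl, chr10:55236656-55236955, minus strand: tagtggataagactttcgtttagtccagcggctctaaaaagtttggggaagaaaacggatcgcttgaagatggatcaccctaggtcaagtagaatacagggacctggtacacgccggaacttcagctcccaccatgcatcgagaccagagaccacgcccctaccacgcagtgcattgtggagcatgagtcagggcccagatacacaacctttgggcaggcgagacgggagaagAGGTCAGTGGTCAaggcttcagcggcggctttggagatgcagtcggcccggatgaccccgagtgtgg
Slc25a20, chr8:118243323-118243622, plus strand: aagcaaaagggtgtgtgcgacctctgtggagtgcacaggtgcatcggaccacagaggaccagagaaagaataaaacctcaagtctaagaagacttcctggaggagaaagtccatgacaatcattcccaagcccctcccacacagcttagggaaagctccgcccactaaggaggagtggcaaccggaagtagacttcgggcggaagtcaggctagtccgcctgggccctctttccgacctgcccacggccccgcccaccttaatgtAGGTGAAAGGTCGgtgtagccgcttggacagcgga
Ucp3, chr1:164227660-164227959, plus strand: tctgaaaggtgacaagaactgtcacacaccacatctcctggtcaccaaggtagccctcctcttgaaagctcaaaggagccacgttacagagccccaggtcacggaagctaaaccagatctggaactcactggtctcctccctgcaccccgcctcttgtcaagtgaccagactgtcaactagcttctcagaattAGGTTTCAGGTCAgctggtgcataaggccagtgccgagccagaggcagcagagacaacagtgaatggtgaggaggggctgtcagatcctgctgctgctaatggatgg

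The window of Hadha (chr6:31907551-31907850, plus strand) overlaps that of Hadhb (chr6:31907451-31907750, minus strand), so the subunits of the trifunctional protein are transcribed away from each other from a shared start region. Their heart differences were 0.38 and 0.68, and neither passed the test in either tissue on the probe used.

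In whole blood, 21 of the 30 genes could be tested, 14 were above background on all 6 arrays and 8 were above it on none. Those 8 were Ppara, Ppargc1a, Lpl, Fabp3, Plin5, Ucp3, Pdk4 and Vnn1, and Acot1 was above background on 1 amiodarone array only, so no difference is given for these 9. Of the 21, 10 were higher, 3 were lower and 8 did not pass. This stands against 67.3% of all 15845 features that passed in blood, 40.2% higher and 27% lower, so the members' share of calls lay near that of all features. Positive differences were found in 15 of 21 (71.4%), against 62.3% of all features, and the median was 0.56 against 0.44 (0.48 with Cpt1a and Etfdh, not above background in vehicle blood, at their bounds). Amiodarone arrays all lay above vehicle arrays in 11 of 21 (44.8% of all features) and all below in 4 (28.8%). Of the 10 higher, Cpt1a, Cpt2 and Acot2 entered through amiodarone blood, with 0, 1 and 1 of 3 vehicle arrays above background. With only probes above background on every array, 14 members could be tested, 7 higher and 4 lower. Their median was 0.35 against 0.18 over all 10737 features, of which 4325 were higher and 3893 lower. The split also depended on the scaling: with no scaling it was 18 higher and 0 lower, and with normexp background correction 1 gene passed.

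**Figure D3:**
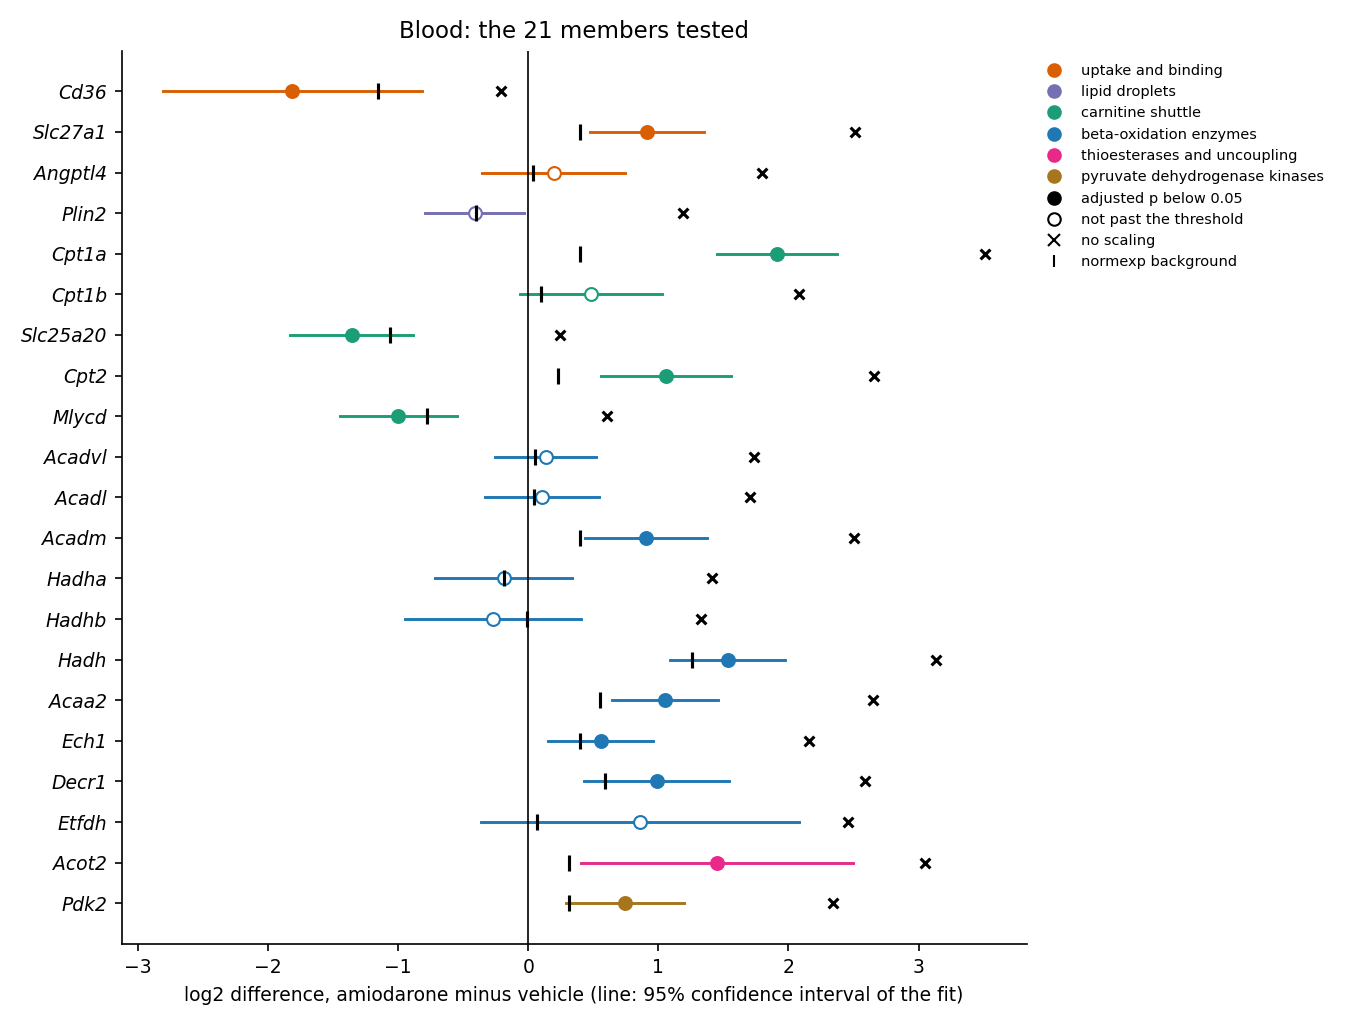
Difference in whole blood (amiodarone minus vehicle, log2) for the 21 genes tested, ordered by role, with the 95% confidence interval. Filled points passed the threshold (10 to the right of 0 and 3 to the left), and the 9 genes not measured in blood are left out.

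Most lists of blood cell markers moved with the groups, beside 40.2% higher and 27% lower over all blood features. Red cell markers were lower in 10 of 11 cases and higher in 0, with a share of signal of 2.66 to 3.07% in vehicle and 0.978 to 1.56% in amiodarone blood. Platelet markers were higher in 6 of 7 cases (0.359 to 0.455% against 0.940 to 1.33%), T cell markers in 7 of 9 and natural killer cell markers in 5 of 7. Neutrophil markers were higher in 5 of 8 cases and lower in 1 (Elane, -1.34). Monocyte markers were higher in 3 of 6 cases and lower in 0 (0.031 to 0.060% against 0.156 to 0.210%), and macrophage markers higher in 5 of 8 and lower in 1. B cell markers were higher in 1 of 5 cases and lower in 0. Among the higher markers, Mmp8, Mmp9, Cd4, Ncr1 and Mrc1 had no vehicle blood array above background. The part of these markers in the blood results below was not tested.

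The 3 genes that were lower in amiodarone blood were Cd36, Slc25a20 and Mlycd. Cd36, which platelets, monocytes and young red cells carry besides muscle, stood at 2.65, 3.85 and 3.68 in vehicle and at 0.84, 1.78 and 2.11 in amiodarone blood. It fell by 1.81 on the log2 scale (SE 0.43, 3.52-fold lower, adjusted p = 0.00822), with no overlap. Slc25a20 stood at 3.57, 3.56 and 3.70 and at 1.95, 2.28 and 2.53 and fell by 1.36 (SE 0.20, adjusted p = 0.00166).

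Mlycd stood at 3.76, 3.72 and 3.62 and at 2.48, 2.98 and 2.64 and fell by 1.00 (SE 0.19, adjusted p = 0.00387). For each of these 3 genes the amiodarone pools lay below every vehicle pool. With normexp correction the values were -1.16 for Cd36, -1.07 for Slc25a20 and -0.78 for Mlycd, none past the threshold. With no scaling they were -0.21, 0.25 and 0.60, again not past it.

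Among the higher genes in blood, the short-chain dehydrogenase Hadh held through every alternative. It stood at 3.23, 3.30 and 3.51 in vehicle and at 5.12, 4.74 and 4.76 in amiodarone blood, with a wide gap between the groups. The difference was 1.53 (SE 0.19, adjusted p = 0.00109), or 2.89-fold, with 1.67 and 1.26 within the array sets. A second Hadh probe had a fitted value of 1.04, which is no size because it was above background on 3 blood arrays only. Its mean signal was 3.33 in vehicle and 21.2 in amiodarone blood. Hadh was called in 20 of 20 alternatives and was the only member that also passed with normexp correction (1.26, adjusted p = 0.0356).

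With Hadh, 5 of the 10 beta-oxidation enzymes were higher in amiodarone blood, beside 40.2% of all features. Acaa2 stood at 1.17, 0.91 and 1.13 and at 2.01, 2.23 and 2.12 (difference 1.05, SE 0.17, adjusted p = 0.00224). Acadm stood at 1.29, 1.05 and 0.72 and at 1.94, 2.0 and 1.83 (difference 0.90, SE 0.20, adjusted p = 0.00655). Decr1 stood at 1.97, 1.90 and 2.35 and at 3.45, 2.80 and 2.92 (difference 0.99, SE 0.24, adjusted p = 0.00902). None of these overlapped between groups. Ech1 was 0.56 higher (SE 0.17, adjusted p = 0.0239), a call kept in 1 of 6 fits that left out a pool, that without vehicle pool 3.

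The trifunctional protein did not pass in blood. Hadha stood at 3.45, 3.69 and 4.16 and at 3.56, 3.46 and 3.71 (difference -0.19, SE 0.23, adjusted p = 0.469), with overlap. Another Hadha probe gave -0.81 (adjusted p = 0.00757), so its probes disagree on the call. Hadhb (-0.27), Acadvl (0.13) and Acadl (0.10) did not pass either, and the signs of all 4 depended on the processing: Hadha was at 0.11 and Hadhb at 0.03 after scaling to array medians, they were at 1.41 and 1.33 (adjusted p = 0.00101 and 0.00155) unscaled, and Acadvl and Acadl were at -0.16 and -0.17 in the value table. Etfdh, above background in no vehicle array, was at least 1.15-fold higher on its bound and did not pass.

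The CPT enzymes were dim in vehicle blood. Cpt1a stood at -1.22, -1.56 and -1.78 in vehicle blood, where none of the arrays was well above background, and at 0.45, 0.37 and 0.36 in amiodarone blood. Where a group was not above background, its level was bounded on each array. The bound was the higher of its own value and the dimmest spot called well above background. On that bound Cpt1a was at least 3.21-fold higher. The limma fit, with adjusted p = 0.000933, used the vehicle values at background and did not test the bound. With normexp correction the difference was 0.40 (adjusted p = 0.0526).

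Cpt2 stood at -0.59, -1.01 and -1.18, above background in 1 vehicle array, and at 0.30, 0.13 and -0.02. The fitted difference was 1.06 (SE 0.21, adjusted p = 0.00475), without overlap, but the other vehicle arrays were at background. With normexp correction it was 0.23 (adjusted p = 0.152). Cpt1b stood at -1.18, -0.43 and -0.97 and at -0.25, -0.51 and -0.38 (difference 0.48, SE 0.23, adjusted p = 0.102). Its second probe went the other way, at -0.76 (adjusted p = 0.0777), so no direction is given for Cpt1b.

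Of the other uptake and droplet genes, Slc27a1 stood at 0.76, 0.55 and 0.37 and at 1.31, 1.61 and 1.5 in blood. It was 0.91 higher without overlap (SE 0.19, adjusted p = 0.00501), but its second probe differed by -0.13 (adjusted p = 0.614). Plin2 stood at 4.23, 4.45 and 4.31 and at 3.97, 3.89 and 3.90, a small gap with no overlap that did not pass (difference -0.41, SE 0.16, adjusted p = 0.0551). Angptl4 stood at -1.37, -1.68 and -2.15 and at -1.68, -1.48 and -1.45 (difference 0.20, SE 0.23, adjusted p = 0.474), and 1 of 3 vehicle arrays was above background. Pdk2 was 0.74 higher (SE 0.19, adjusted p = 0.0123). Acot2 was above background in 1 vehicle array, with the others at background. Its fitted difference was 1.45 (SE 0.45, adjusted p = 0.0232), and with normexp correction 0.31 (adjusted p = 0.168). The call was kept in 2 of 6 fits that left out a pool: those without amiodarone pool 2 or vehicle pool 3.

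Of the wider pathway 52 genes could be tested in blood, 29 of them higher and 14 lower, with a median of 0.72, beside 40.2% higher, 27% lower and a median of 0.44 over all blood features. Dgat2 was 3.04 higher (SE 0.30) and Dgat1, its partner at the same step, 1.75 higher (SE 0.18). Ppard, the PPAR of broad expression, fell by 1.77 (SE 0.18). Pdp1, a phosphatase that reverses the pyruvate dehydrogenase kinases, was at least 1.43-fold higher, with no vehicle array above background. Each of these 4 had an adjusted p of 0.000933 in the limma fit. For Pdp1 that fit used vehicle values at background and did not test the bound. With normexp correction the counts were 3 higher and 5 lower, Dgat2 (2.37) and Ppard (-0.76) still passed, at adjusted p = 0.0246 each, and Dgat1 (0.92, adjusted p = 0.0820) and Pdp1 (0.28, adjusted p = 0.155) did not. With no scaling the counts were 39 higher and 1 lower, and Ppard was at -0.17 (adjusted p = 0.673). Like Pdp1, the higher genes Lpin1, Acsl3, Pdk1, Bdh1, Gk and Crot had no vehicle array above background. With only probes above background on every array, 36 genes could be tested, 20 higher and 12 lower, with a median of 0.67. Over all 10737 features of that fit, 4325 were higher and 3893 lower, with a median of 0.18.

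Whether the drug effect differed between the tissues was tested as the heart difference minus the blood difference in 1 fit of all 12 arrays. It passed for 13 of 30 genes, 10 positive and 3 negative, against 46.4% of all 20311 features, 24.8% positive and 21.6% negative. Of the 13, 6 were above background on at least 1 array of each blood group, Cpt2 on 1 of 3 vehicle arrays. A further 6 (Ppara, Ppargc1a, Lpl, Fabp3, Pdk4 and Vnn1) entered through heart and rest on blood values that were not above background. For them neither a size nor a direction is given, and their calls are not read as a drug effect that differed. Cpt1a was above background in amiodarone blood only. Of the 7 genes changed in heart, 3 (Slc27a1, Decr1 and Ech1) were also higher in blood, where 40.2% of all features were higher. Cd36 was lower there, and Acot1, Pdk4 and Plin5 were not measured in blood. A second Slc27a1 probe was at -0.13 in blood (adjusted p = 0.614). The blood call of Ech1 was kept in 1 of 6 fits that left out a pool.

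Cd36 was higher in heart and lower in blood, and the heart effect exceeded the blood effect by 3.07 (SE 0.54, adjusted p = 0.00153). It passed in 24 of 24 alternatives, with values from 1.34 to 3.44. For Hadh the heart effect was smaller than the blood effect (-1.19, SE 0.24, adjusted p = 0.00286), and it too passed in 24 of 24 alternatives, from -2.92 to -0.95. The remaining 4 above background on at least 1 array of each blood group were Slc25a20, Mlycd, Cpt2 and Plin2. Slc25a20 was at 1.36 (SE 0.26, adjusted p = 0.00229) and Mlycd at 0.98 (SE 0.30, adjusted p = 0.02). Cpt2 was at -0.84 (SE 0.27, adjusted p = 0.0269) and Plin2 at 0.67 (SE 0.24, adjusted p = 0.0386). With no scaling the sign turned for Slc25a20 (-0.38), Mlycd (-0.75) and Plin2 (-1.06), and with normexp correction Cpt2, above background in 1 of 3 vehicle blood arrays, was at -0.07. For Cpt1a only a bound can be given: on the bound for vehicle blood its blood effect exceeded its heart effect by at least 1.26 on the log2 scale, and with normexp correction the fitted difference was -0.08.

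**Figure D4:**
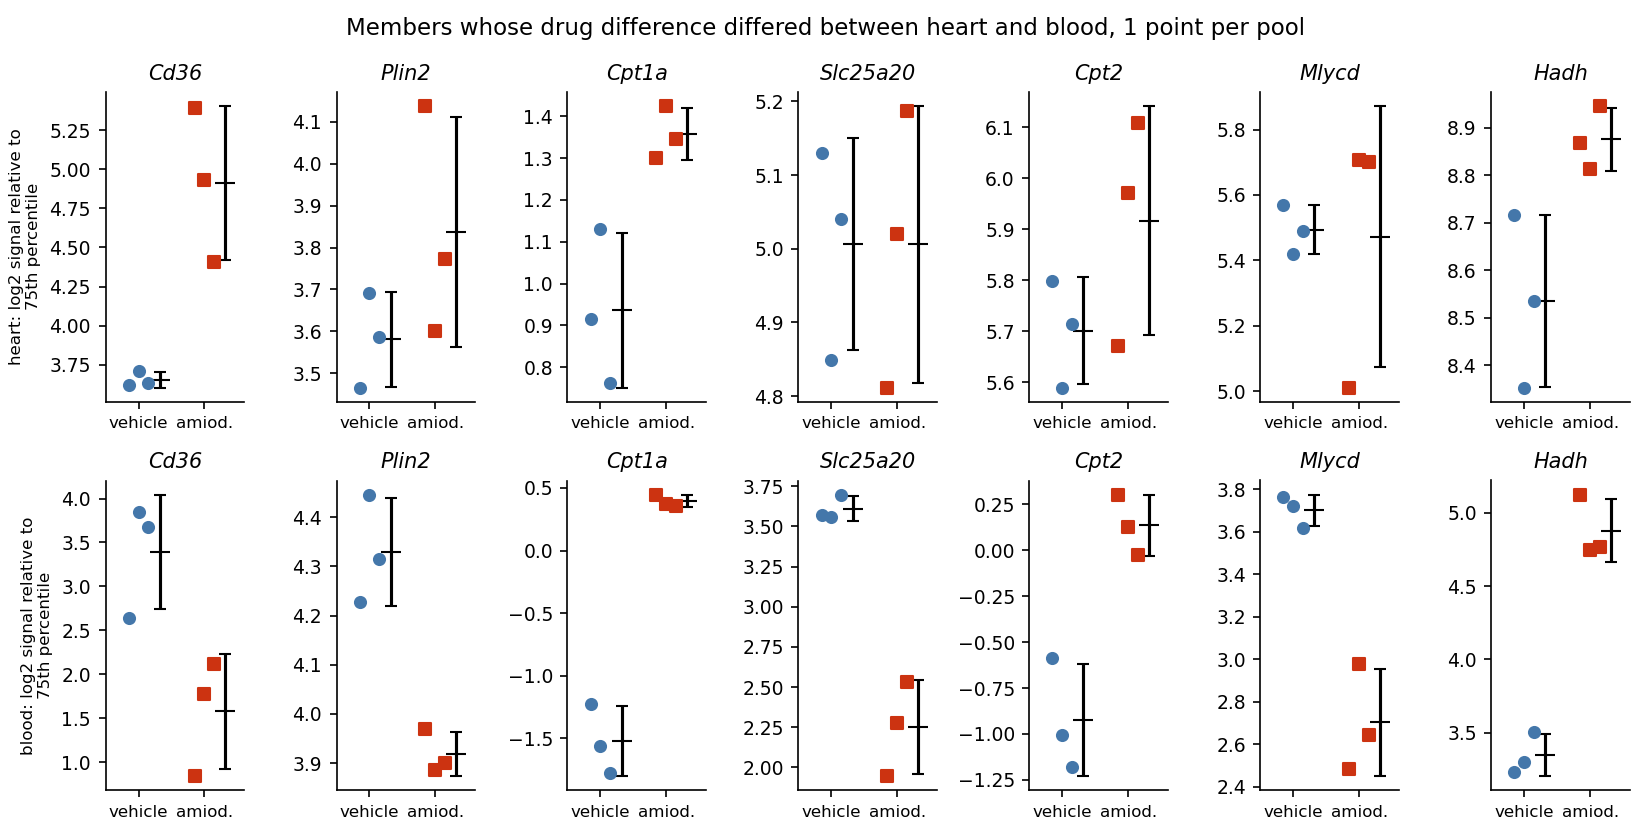
Log2 level relative to the 75th percentile of the array in each pool for the 7 genes above background in at least 1 blood group whose drug effect differed, heart beside blood, 1 panel per gene with its own y axis. Points are pools and bars the mean and SD (n = 3); the 3 vehicle blood arrays of Cpt1a were not above background. Cd36 is the gene whose amiodarone pools lie above vehicle in heart and below it in blood.

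In vehicle rats most of the genes gave a higher level in the left ventricle than in whole blood. Between vehicle heart and vehicle blood, 26 of 30 genes passed the test as higher in heart and 2 as lower, against 81.1% of all features in either direction, 42.1% and 38.9% in each, and the median difference was 4.42 against 0.17 (4.13 with the 11 members not above background in vehicle blood at their bounds). Tissue, extraction kit and array set cannot be told apart in this comparison. All 10 beta-oxidation enzymes were higher in heart: among those with 3 vehicle blood arrays above background, the differences were 6.14 for Acadm, 6.01 for Acaa2, 5.87 for Acadl, 5.19 for Hadh, 4.51 for Acadvl and 3.4 for Hadha.

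**Figure D5:**
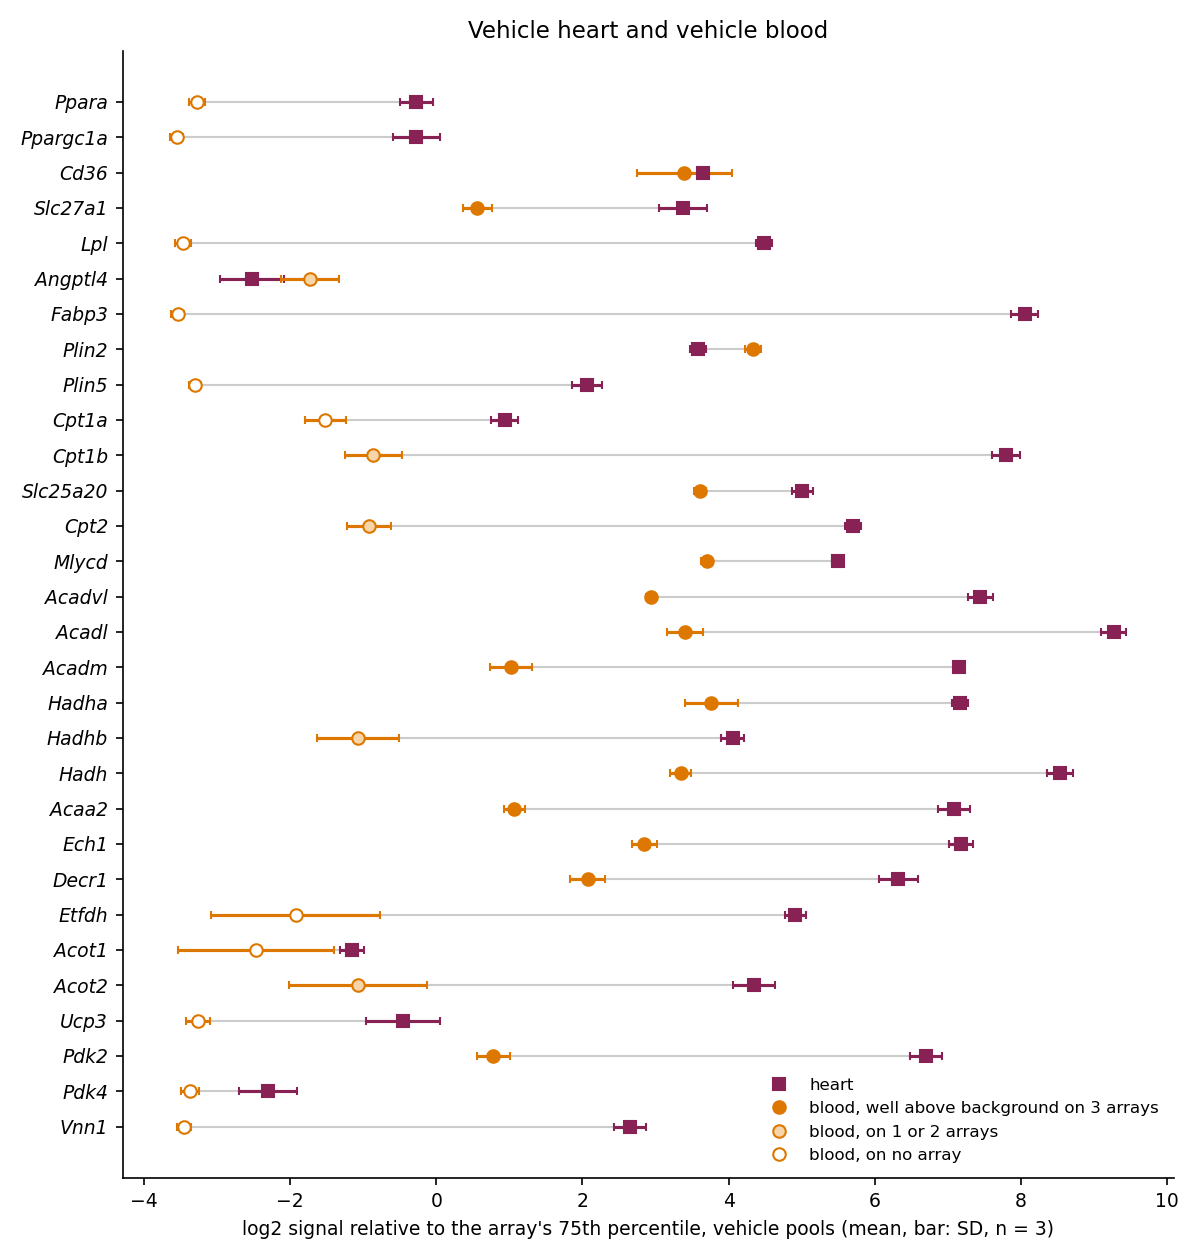
Log2 level relative to the 75th percentile of the array in vehicle heart and vehicle blood for each of the 30 genes, as the mean and SD of 3 pools, with pale or open symbols where some or all blood arrays were not well above background. Rows are different probes and are not to be compared with each other. Plin2 and Angptl4 are the genes lower in heart on this scale, Angptl4 with 1 of 3 vehicle blood arrays above background.

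Genes not above background in vehicle blood are given as bounds. Fabp3 was at least 678-fold higher in heart, Etfdh 72.4-fold, Lpl 56.9-fold, Vnn1 16.0-fold, Plin5 10.6-fold, Cpt1a 4.67-fold, Ppara and Ppargc1a 2.11-fold each and Ucp3 1.86-fold. For Pdk4 the bound was under 1, so no fold is given and these arrays do not show it higher in heart. The 26 thus divide into 16 with at least 1 vehicle blood array above background, 9 with a bound above 1 and Pdk4. The carnitine carrier Slc25a20 (1.4) and Mlycd (1.79) were among the smaller differences. Plin2 was lower in heart (-0.75, adjusted p = 0.00136). So was Angptl4 (-0.79, adjusted p = 0.0482), which was above background on 1 of 3 vehicle blood arrays. With no scaling both turned (1.81 and 1.76), and with normexp correction Plin2 was at 0.24. With array median scaling 27 genes were higher and 0 lower. Cd36 did not differ past the threshold (0.26, adjusted p = 0.537).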

How the data were processed

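RNA of 12 pools was hybridised to single-colour Agilent rat arrays, 1 per pool. Per the file headers, the deposited intensity of each spot is the processed signal of Agilent Feature Extraction 9.5.1.1, background-subtracted and multiplicatively detrended, built from a pair of scans at high and low sensitivity and not scaled between arrays. Mean and local background intensity were deposited in the same files, with other columns of flags per the file headers. The value table of the authors holds normalized intensity on a linear scale by a method not given in the sources used here. Each of its columns followed the scanner file of the same array, at column medians of 21.3 to 30.0 in heart and 7.28 to 7.81 in blood. The series text states that heart and blood were normalized separately, and these values served as an alternative.

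Control spots and outlier spots were left out, spots of a probe were averaged, and the log2 of each array's 75th percentile was subtracted. Probes were named from the rat RefSeq table by accession (16336), symbol (3742), synonym (1109) or its accession column (141), and 19683 of 41012 kept the name in the file. Of the 30 genes, 28 matched by the name in the file, Plin5 by accession and Plin2 by its probe description. Probes entered a test when all 3 arrays of 1 or more groups showed them well above background, and a gene was read from its brightest passing probe. Differences were tested two-sided with limma 3.58.1 in R 4.3.3 (with data.table, version 1.17.8), each tissue alone; both tissues entered 1 fit of 12 arrays for differences between them. An exact permutation test of 3 against 3 cannot go below p = 0.1. The steps were tested on simulated data. Positions of probes are those of rn4 in the deposited files. Figures and promoter searches used Python 3.11.15.

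The genes, the wider pathway and the marker lists were chosen with earlier results of these data known. Values of every pool are given for genes changed in heart, for the 10 changed genes of smallest p in blood, and wherever measured for 14 genes picked to represent the roles; of the wider pathway, the 4 of smallest p in each tissue are named. In heart, deviations of same-numbered pools correlated at -0.17, -0.24 and 0.32, against -0.20 to 0.35 for pools of different number. In blood they correlated at 0.08, 0.17 and 0.31, against -0.30 to 0.17. These values do not settle whether same-numbered pools belong together. No pairing was used in the main fits, and a block for the replicate number was among the alternatives. The alternatives covered background correction (normexp, offset 50), scaling, the value table, the filter on dim probes, the choice of probe, blocks for replicate number and array set, array weights, 1 fit of 12 arrays and leaving out each pool. No pair of arrays was identical, the highest correlation between arrays being 0.985. Precision is limited by having 3 arrays a group, and what could be measured by signal over background.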

Additional observations from a re-analysis of the deposited data

Results flagged for a closer look

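A total of 7 genes above background in at least 1 blood group had a drug effect that differed between heart and blood in the limma fit of 12 arrays, given as the heart difference minus the blood difference on the log2 scale. For Cd36, the fatty acid translocase, it was 3.07 (adjusted p = 0.00153): the heart pools were higher and the blood pools lower after amiodarone, each in 3 of 3 pools. For Hadh, the short-chain 3-hydroxyacyl-CoA dehydrogenase, it was -1.19 (adjusted p = 0.00286), with amiodarone pools above vehicle pools in both tissues and more so in blood. These were the only 2 of the 7 past the threshold in 24 of 24 alternatives.

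The carnitine shuttle gave 4 of the 7. For Cpt1a the fitted value was -1.49 (adjusted p = 0.0011), which is no size because vehicle blood was not above background: on its bound the blood effect exceeded the heart effect by at least 1.26, and with normexp correction the fitted value was -0.08. Cpt2 was at -0.84 (adjusted p = 0.0269), past it in 16 of 23. Slc25a20 was at 1.36 (adjusted p = 0.00229), past it in 22 of 24, and Mlycd at 0.98 (adjusted p = 0.02), past it in 19 of 24. The droplet protein Plin2 was at 0.67 (adjusted p = 0.0386), past it in 8 of 24. The blood groups also differed in brightness and in red cell and platelet marker signal, whose part in these differences was not tested.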

How the results depend on the processing

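The count of changed members in heart, 7, became 11 with normexp correction, 4 with no scaling, 1 with no filter, 13 with array weights, 4 in 1 fit of 12 arrays and 1 in the larger array set alone, and lay between 2 and 7 when 1 pool was left out. With the replicate number as a block it was 2 (Acot1 and Decr1) in heart, 13 in blood and 13 for the difference between tissues; the block was not used as pairing, and not every pool correlated best with its own number. In blood, 13 changed members became 1 with normexp (Hadh) and 11 with the filter on every array. They became 22 with no filter, 22 in the fit of 12 arrays and 11 to 14 without 1 pool. Unfiltered and 12-array fits include members at background. For the difference between tissues, 13 became 4 with normexp, 7 with quantile scaling and 6 with the filter on every array, and 11 to 16 without 1 pool. Between vehicle tissues, 28 became 13 with the filter on every array, which leaves fewer genes, and 27 to 28 without 1 pool.

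Directions turned for Ppargc1a in heart with no scaling (-0.03), array weights (-0.02) and the larger array set (-0.07), and it ranged from -0.01 to 0.29 without 1 pool. Ucp3 in heart ranged from -0.45 to 0.05 without 1 pool. In blood, Angptl4 turned with the value table (-0.01) and the larger set (-0.06) and ranged from -0.01 to 0.38 without 1 pool. Cpt1b turned with the mean of its probes (-0.14) and with every probe its own feature (-0.76). Hadha turned after scaling to array medians (0.11) and without scaling (1.41) and ranged from -0.35 to 0.01. With no scaling Plin2 (1.19), Slc25a20 (0.25) and Mlycd (0.60) turned in blood, and Plin2 (-1.06), Slc25a20 (-0.38) and Mlycd (-0.75) in the difference between tissues. The blood 75th percentile differed by 1.6 between groups, which remains without scaling. For other changes the cause was not tested.

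The 7 heart calls were kept in 97 of 140 alternative values and the 13 blood calls in 229 of 257; the others lost the call or, as above, turned. Over all features, the count of 1487 in heart became 675 with the replicate block, 741 with no scaling, 290 with no filter, 251 in the larger set, 922 in the fit of 12 arrays and 2764 with array weights. The 10661 in blood became 1436 with normexp and 25051 with no filter. The higher and lower split over all features was 751 and 736 in heart, 1039 and 575 after scaling to array medians and 226 and 515 unscaled. In blood it was 6375 and 4286, 7991 and 3491 after scaling to array medians, 11897 and 309 unscaled, 4199 and 4705 with the value table and 275 and 1161 with normexp. Across all features the median moved to 0.11 (array medians) and to -0.11 (unscaled) in heart, and from 0.44 to 0.74 and 2.04 in blood, with 0.19 for the value table and 0.08 for normexp.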
